A study of Homo sapiens with 12 samples.

Results

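The mucins examined here are 10 genes chosen by name: the transmembrane mucins MUC1, MUC4, MUC13, MUC15, MUC16, MUC20 and MUC3A, and the gel-forming mucins MUC5AC, MUC5B and MUC6. They are 10 of the 60666 genes in the count table. RNA-seq was done on HT1376, a human bladder carcinoma cell line, in 4 groups of 3 libraries. HT1376 CT cells were left untreated or given 100 ng/mL IFNγ for 48 hours, and so were HT1376 FOXP3 KO cells. The sample labels call the control line WT and the untreated cells UTR. Both lines are single-cell clones made with CRISPR/Cas9, HT1376 CT with a guide against luciferase and HT1376 FOXP3 KO with guides against exon 2 of FOXP3, so a difference between the lines and a difference between the clones cannot be told apart. Nothing in the labels says that the 3 libraries of a group came from separate cultures, so p-values measure the spread between these libraries, which may be technical.

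Mucins are long proteins whose repeats rich in serine and threonine carry dense O-linked glycans. The transmembrane members line the apical surface of epithelia, including the urothelium, and their short cytoplasmic tails can signal, while the gel-forming members are secreted and polymerize into mucus. IFNγ, a cytokine of T cells and natural killer cells, acts through the kinases JAK1 and JAK2, and FOXP3 is a forkhead transcription factor best known in regulatory T cells.

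The libraries held 4490684 to 39270042 counts (median 15551201). FOXP3 itself had no more than 3 counts in any library, so its counts could not check the labels. All 15 genes of a list of known IFNγ targets were higher with IFNγ in each line. Of all genes tested, 3.53% were higher with IFNγ in HT1376 CT and 0.978% in HT1376 FOXP3 KO, at an adjusted p under 0.05. The median log2 fold change of the 15 was 7.41 in HT1376 CT and 4.05 in HT1376 FOXP3 KO. With IFNγ, 12 of them were lower and 1 was higher in HT1376 FOXP3 KO, against 15.7% and 13.2% of all genes tested. The IFNγ effect was smaller there for 5 of the 15 (interaction), where 0.111% of all genes passed. The summed level of 12 epithelial marker genes was 4434 to 5723 normalized CPM (counts scaled to a common library total) over all libraries. Single markers still differed between the lines. In untreated HT1376 FOXP3 KO 4 of the 12 were lower, among them EPCAM (log2 fold change -1.92), GATA3 (-0.68) and CDH1 (-0.65). There 2 were higher, among them KRT7 (0.95), against 18.2% lower and 14.0% higher of all genes tested. With IFNγ, EPCAM and CDH1 were lower and KRT7 was higher, against 15.7% and 13.2% of all genes. Immune markers summed to at most 2.31 CPM and endothelial markers to at most 2.32 CPM. The 6 goblet cell markers summed to at most 4.69 CPM, with CLCA1 at 0 in every library. The 6 fibroblast markers summed to 24.5 to 63.6 CPM in HT1376 CT and to 442 to 703 CPM in HT1376 FOXP3 KO, with 4 of the 6 higher there (LUM, DCN, COL1A2 and PDGFRB) and 1 lower, and this moved with each difference between the lines described here. Its part in them was not tested. In bulk RNA, fewer expressing cells and less RNA per cell cannot be told apart.

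To compare genes with each other, counts were divided by the exon length of the gene and scaled to the same total in each library (TPM, the level per length). In untreated HT1376 CT, MUC1, whose cytoplasmic tail binds signalling proteins, stood at 138 ± 55.6 (SD, n = 3) and MUC16, the very large mucin that carries the CA125 antigen, at 110 ± 8.16 on this scale. Libraries of these genes overlapped, so their order was not resolved. MUC15, a small and heavily glycosylated membrane mucin, followed at 8.86 ± 0.559, and MUC4, a mucin known to pair with the receptor ERBB2, at 1.49 ± 0.572. The other 6 genes were each below 0.5 on this scale. With IFNγ, MUC1 stood at 489 ± 135 in HT1376 CT, above MUC16 at 193 ± 19.8 in every library.

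In HT1376 FOXP3 KO the order of the levels per length was different. MUC15 led without IFNγ at 61.3 ± 8.92, which was 55.5% of the summed level of the 10 genes, against 3.41% in untreated HT1376 CT. MUC1 followed at 34.3 ± 16.2. The ranges of MUC15 and MUC1 over the libraries overlapped, but within each library MUC15 was the higher. It was at 68.0 against 24.3, 64.7 against 53.0 and 51.2 against 25.6 in libraries 11, 12 and 13. MUC16 was below both in every library at 14.6 ± 2.88. With IFNγ, MUC1 at 65.5 ± 23.8 and MUC15 at 62.2 ± 14.0 overlapped, and MUC16 was at 28.4 ± 6.34. The summed level of the 10 genes was 213 to 313 in untreated HT1376 CT, 534 to 848 with IFNγ, 89.0 to 132 in untreated HT1376 FOXP3 KO and 131 to 177 with IFNγ. These ranges did not overlap between any 2 of the groups except untreated HT1376 FOXP3 KO and the same line with IFNγ, whose ranges met between 131 and 132.

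**Figure D1:**
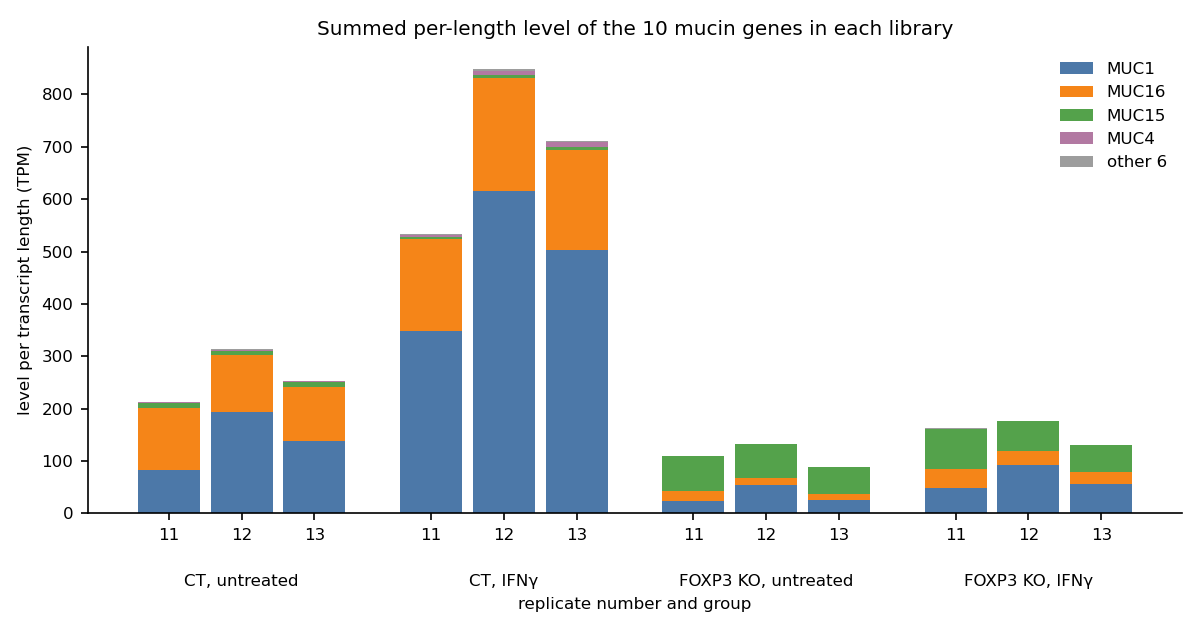
Stacked bars give the level per transcript length (TPM) of MUC1, MUC16, MUC15, MUC4 and the summed other 6 mucin genes in each of the 12 libraries, by group and replicate number. MUC1 and MUC16 make up nearly all of the bar in HT1376 CT, while MUC15 takes 55.5% of the group's mean sum in untreated HT1376 FOXP3 KO.

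Short promoter sequences with a match are shown for the members that passed the test with IFNγ in HT1376 CT (MUC1, MUC4 and MUC20, while MUC16 had no match) and for MUC15, the tested member that was higher in HT1376 FOXP3 KO, because short DNA motifs are known for the IFNγ response and for FOXP3. The motifs searched on both strands were the gamma-activated sequence (GAS) TTCNNNGAA, the interferon-response motif GAAANNGAA and a forkhead motif of the kind the study used for FOXP3. The forkhead motif was searched as ATAAACA, in a variant form as ACAAACA, in a further form as GTAAACA and in a last form as GCAAACA. In the RefSeq promoter table (GRCh38.p14, 250 bases before to 50 after a start), which holds MUC1, MUC4, MUC13, MUC16 and MUC3A, 1 member had a match, MUC4, at the GAS. Of its 35116 windows, 7.66% hold a GAS, 8.11% the interferon-response motif and 15.1% a forkhead motif. In the 1000 bases before each gene start (GRCh38, GENCODE 44), a GAS was found for MUC1, MUC15 and MUC5B, and 24.1% of 20046 protein-coding genes have one there. A forkhead motif was found for MUC13, MUC15, MUC20, MUC5AC, MUC5B and MUC6, and 45.9% of genes have one. The interferon-response motif was found for MUC15, MUC3A and MUC5AC, against 27.2% of genes. MUC16 had no match in either window. Matches of the members with few counts, MUC20 apart, are counted here and not printed. The windows below are written 5′ to 3′ on the strand of the gene, with the matched motif in capitals. Where the letters are the reverse complement of a motif named above, the match lies on the other strand.
MUC1, GAS, chr1:155193400-155193428, minus strand, first motif base at -502 from the gene start: ggtggggctaTTCCGGGAAgtggtggggg
MUC4, GAS, chr3:195811922-195811950, minus strand, first motif base at -11 from the RefSeq start: ccctggccccTTCGGAGAAacgcacttgg
MUC15, GAS, chr11:26572541-26572569, minus strand, first motif base at -296: tgtttatgatTTCAGAGAAtgtgcggctg
MUC15, forkhead motif, chr11:26572553-26572579, minus strand, first motif base at -306: acagaaaaatTGTTTATgatttcagag
MUC15, interferon-response motif, chr11:26572774-26572802, minus strand, first motif base at -529: aagtcagcaaGAAACCGAAtctcagtcat
MUC20, forkhead motif, chr3:195720803-195720829, plus strand, first motif base at -71: ttcagtggagTGTTTACcgggcaagga
In MUC15 the GAS and the forkhead motif lie beside each other, so both printed windows share bases. A match is a description of letters and was not tested for binding.

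The first comparison asked how the mucins differ between the lines without IFNγ. Of the 8 members with enough counts to be tested, 5 were lower in HT1376 FOXP3 KO (MUC1, MUC4, MUC13, MUC16 and MUC3A) and 1, MUC15, was higher. Over all 25320 genes tested, 18.2% were lower and 14.0% were higher at an adjusted p under 0.05 (edgeR quasi-likelihood test, Benjamini-Hochberg). MUC13, MUC3A and MUC5B reached 10 counts only through HT1376 CT, with 26, 38 and 21 counts there against 1, 1 and 3. A gene that passes in this way can hardly come out higher in HT1376 FOXP3 KO. The calls of MUC13 and MUC3A are therefore no support beside these shares. Among the members with at least 10 counts in each line, MUC1, MUC4 and MUC16 were lower, MUC15 was higher and MUC20 was not called. The median log2 fold change of all 8 members was -2.56, against -0.02 over all genes, and has the same limit. MUC1, MUC4 and MUC16 are also in the study's own set of FOXP3-dependent genes induced by IFNγ. That set came from these same data, so their calls are not independent evidence. MUC5AC and MUC6 did not reach a total of 10 counts in these libraries.

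MUC16, on chromosome 19 from 8848844 to 9010390 on the minus strand, had the most counts of the members in every library. In untreated HT1376 CT its level was 1478, 1293 and 1309 normalized CPM in libraries 11, 12 and 13, which ranked it 43rd of all genes by mean CPM. CPM is not corrected for its 44165 exon bases, and by the level per length it ranked 1292nd. In untreated HT1376 FOXP3 KO it was 212, 157 and 151 CPM. Every library of the knockout line was below every library of the control line. The log2 fold change was -2.95 ± 0.15 (SE), with an adjusted p of 1.65e-07.

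MUC1, on chromosome 1 from 155185824 to 155192916 on the minus strand, was at 55.7, 126 and 95.1 CPM in untreated HT1376 CT. In untreated HT1376 FOXP3 KO it was at 15.8, 32.3 and 17.4 CPM. The groups did not overlap, and in both lines library 12 was the highest. The log2 fold change was -2.08 ± 0.32 with an adjusted p of 0.000532.

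MUC4, on chromosome 3 from 195746765 to 195811973 on the minus strand, was at 5.85, 7.78 and 12.7 CPM in untreated HT1376 CT and at 0.343, 0.624 and 0.403 CPM in HT1376 FOXP3 KO. The knockout values rest on 7 or 8 counts per library. The groups were far apart, and the log2 fold change was -4.32 ± 0.41 with an adjusted p of 1.59e-05.

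MUC15, on chromosome 11 from 26559032 to 26572263 on the minus strand, went the other way. Its level was 9.37, 8.82 and 8.46 CPM in untreated HT1376 CT and 66.1, 58.9 and 51.9 CPM in HT1376 FOXP3 KO. Every knockout library was above every control library. The log2 fold change was 2.75 ± 0.14 with an adjusted p of 2.04e-07. By mean CPM, MUC15 ranked 9953rd in untreated HT1376 CT and 3745th in untreated HT1376 FOXP3 KO.

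The remaining members were near the limit of detection. MUC13, a membrane mucin best known from the intestine, had 6, 10 and 10 counts in the libraries of untreated HT1376 CT and 0, 1 and 0 in those of HT1376 FOXP3 KO. Its pooled ratio was 20.0-fold higher in HT1376 CT (exact 95% counting interval 3.29 to 820), and its adjusted p was 0.031. That call was kept when library 12 of untreated HT1376 FOXP3 KO was left out and was lost when any other single library was left out, with an adjusted p of up to 0.112. MUC3A, another intestinal membrane mucin, had 11, 6 and 21 counts in HT1376 CT and 0, 0 and 1 in HT1376 FOXP3 KO. Its pooled ratio was 29.2-fold (4.94 to 1185), with an adjusted p of 0.00824 and a call that was kept without any single library. These intervals cover counting error only. MUC20, a small membrane mucin that binds the receptor MET, had 7, 4 and 17 counts in HT1376 CT and 7, 7 and 1 in HT1376 FOXP3 KO, and the groups overlapped (log2 fold change -0.34 ± 0.80, adjusted p = 0.786). The gel-forming MUC5B had 4, 1 and 16 counts in HT1376 CT and 3, 0 and 0 in HT1376 FOXP3 KO, with an adjusted p of 0.201.

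**Figure D2:**
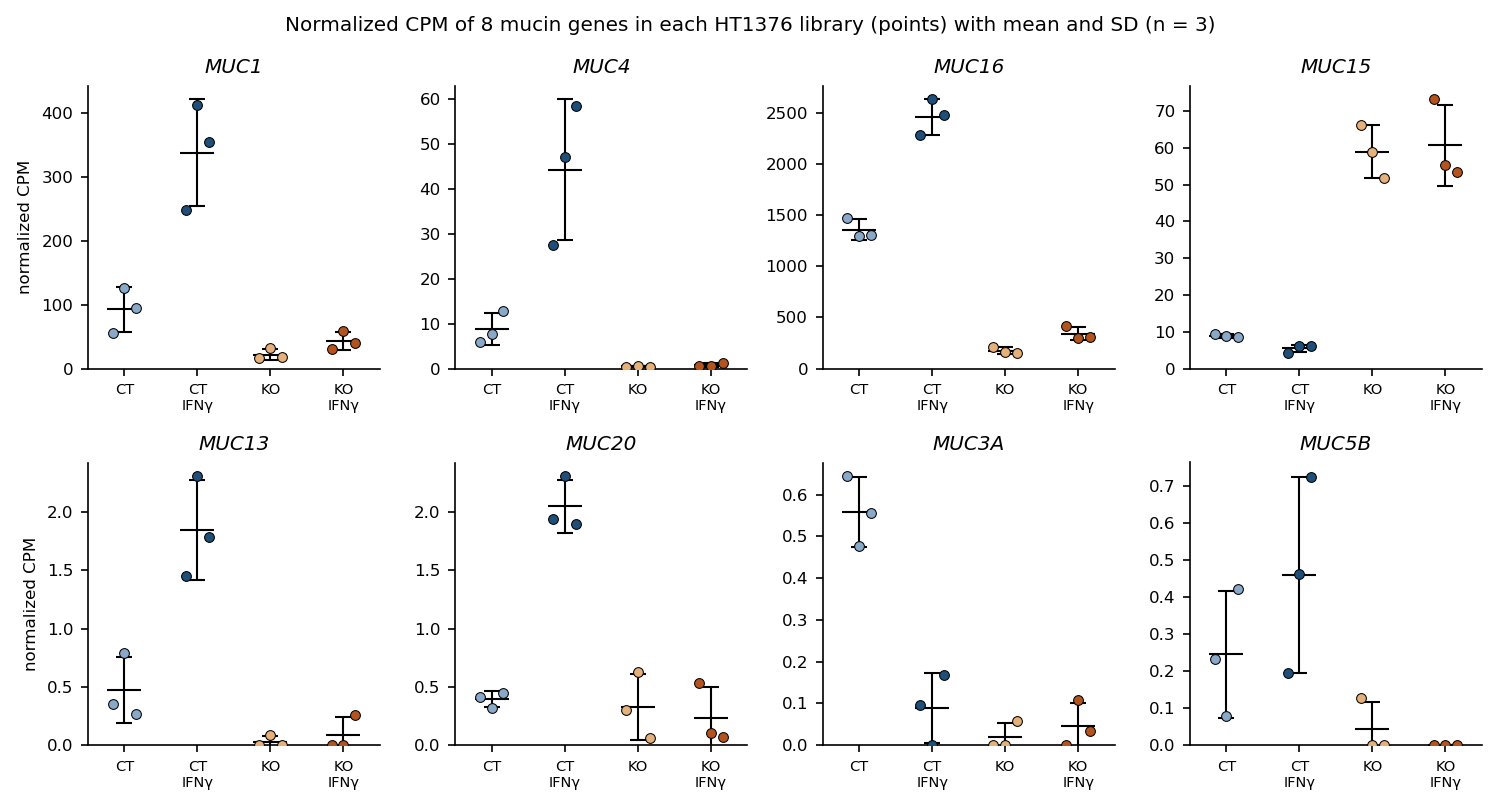
Points give the normalized CPM of 8 mucin genes in each library of the 4 groups on linear axes from 0, with the mean and SD of each group (n = 3, error bars cut at 0). MUC1, MUC4 and MUC16 are lower and MUC15 is higher in every FOXP3 KO library than in every CT library of the same treatment.

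Under IFNγ the same question was asked of the treated cells. Of 7 members tested, 6 were lower in HT1376 FOXP3 KO (MUC1, MUC4, MUC13, MUC16, MUC20 and MUC5B) and MUC15 was higher, where 15.7% of 24388 genes were lower and 13.2% were higher. MUC13 and MUC5B reached the count minimum only through HT1376 CT, with 57 and 17 counts there against 8 and 0. As in the untreated comparison, such genes can hardly come out higher in HT1376 FOXP3 KO. Their calls are therefore no support beside these shares. Among the members that reached the minimum in each line, MUC1, MUC4, MUC16 and MUC20 were lower and MUC15 was higher. The median log2 fold change of all members tested was -3.09, or -2.94 with MUC5B set to the bound given below. Over all genes it was 0.02, and the median of the members has the same limit. MUC1, MUC4, MUC16 and MUC20 are also in the study's own set named above, so their calls are not independent evidence.

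MUC4 differed most among the members with over 3 counts in each library of both groups. With IFNγ it was at 27.5, 47.1 and 58.4 CPM in HT1376 CT and at 0.535, 0.534 and 1.30 CPM in HT1376 FOXP3 KO. Its fold change on the log2 scale was -5.59 ± 0.38 with an adjusted p of 1.54e-06, and the groups did not overlap. Without library 13 of treated HT1376 FOXP3 KO, the highest of the 3, it was -6.28. MUC1 was at 248, 412 and 354 CPM in HT1376 CT and at 30.4, 58.7 and 39.3 CPM in HT1376 FOXP3 KO. This is a log2 fold change of -2.94 ± 0.26 (adjusted p = 9.63e-06).

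MUC16 was at 2285, 2635 and 2478 CPM in treated HT1376 CT and at 414, 299.6 and 309 CPM in HT1376 FOXP3 KO. In treated HT1376 CT it ranked 22nd of all genes by mean CPM and 638th by the level per length. Its fold change on the log2 scale was -2.81 ± 0.15 (adjusted p = 2.40e-07). MUC15 was at 4.26, 6.001 and 6.09 CPM in HT1376 CT and at 73.3, 55.3 and 53.4 CPM in HT1376 FOXP3 KO. The knockout libraries were again all higher, with a log2 fold change of 3.53 ± 0.21 (adjusted p = 6.60e-07).

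Among the members with few counts, MUC20 had 20, 10 and 34 counts in treated HT1376 CT and 8, 1 and 2 in HT1376 FOXP3 KO. Its log2 fold change was -3.09 ± 0.75 (adjusted p = 0.0095), and it was -4.55 without library 11 and -2.44 without library 13 of treated HT1376 FOXP3 KO. MUC13 had 15, 10 and 32 counts against 0, 0 and 8, with a log2 fold change of -3.75 ± 0.86 (adjusted p = 0.0073). All of the knockout counts came from library 13, and without it the fitted value was -7.35, against libraries at 0. MUC5B had 2, 2 and 13 counts in HT1376 CT and 0 in each library of HT1376 FOXP3 KO. Set against a floor of 3 counts per library, it was at least 2.23-fold lower there (adjusted p = 0.0214). That call was lost without library 13 of treated HT1376 FOXP3 KO (adjusted p = 0.0662). Library 13 of treated HT1376 CT holds 13 of the 17 counts, and without it MUC5B fell under the count minimum and was not tested.

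Between lines, then, MUC15 was the one tested member that was higher in HT1376 FOXP3 KO with an adjusted p under 0.05, with and without IFNγ. The untreated and treated comparisons use different libraries of the same clones.

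**Figure D3:**
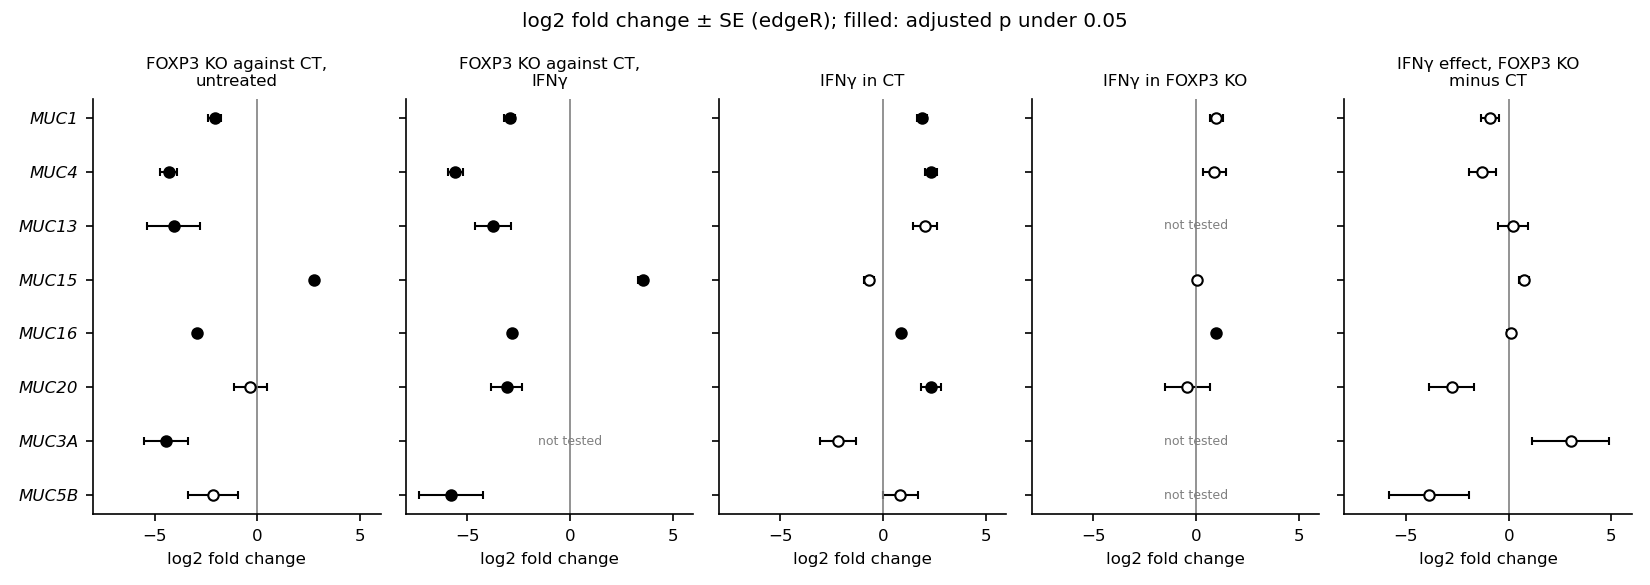
Each panel gives the log2 fold change ± SE of 8 mucin genes in 1 of the 5 comparisons (edgeR), filled where the adjusted p is under 0.05. MUC15 lies on the opposite side of 0 from the called MUC1, MUC4 and MUC16 in both comparisons between the lines.

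Next, IFNγ was compared with no treatment within HT1376 CT. Of 8 members tested, 4 were higher with IFNγ (MUC1, MUC4, MUC16 and MUC20) and 0 were lower, where 3.53% of 24416 genes were higher and 1.82% were lower. DESeq2 called 5 of the 8 members, with MUC13 as the fifth, and all of them higher. It called 1124 of the 24416 genes higher and 670 lower. It gave no adjusted p for MUC3A and MUC5B, so these could not be called there. In edgeR an unadjusted p under 0.05 was found for 7 of the 8, against 4316 of the 24416 genes. Of these 7 members, MUC15 and MUC3A had negative fold changes. The median log2 fold change of the members was 1.39, against -0.02 over all genes. MUC1, MUC4, MUC13, MUC16 and MUC20 are in the study's own set of IFNγ-induced, FOXP3-dependent genes, which came from these same data. Counts of members called are therefore not independent evidence beside the shares of all genes.

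MUC4 rose by a log2 fold change of 2.33 ± 0.31 (adjusted p = 0.000791), from a mean of 8.79 ± 3.55 CPM to 44.3 ± 15.6 CPM (SD, n = 3). MUC1 rose by 1.90 ± 0.26 (adjusted p = 0.00109), from 92.4 ± 35.4 to 338 ± 83.6 CPM. MUC16 rose by 0.88 ± 0.10 (adjusted p = 0.000152), from 1360.0 ± 102.5 to 2466 ± 176 CPM. For each of these genes every treated library, as listed above, was above every untreated library.

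MUC20 rose as well, by a log2 fold change of 2.33 ± 0.48 (adjusted p = 0.0142), from 0.392 to 2.05 CPM, with treated libraries at 1.94, 2.31 and 1.90 CPM against 0.410, 0.318 and 0.449 CPM. The groups did not overlap, but the call was lost without library 11 or 13 of untreated HT1376 CT (adjusted p = 0.0547 and 0.0581), without library 13 of treated HT1376 CT (0.064), or when all 12 libraries were fitted together (0.0849).

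MUC13 and MUC15 did not pass in this comparison, and the call changed when the replicate number was a block in the model. MUC13 had means of 0.470 and 1.85 CPM, and its libraries did not overlap. Its log2 fold change was 2.06 ± 0.57 (adjusted p = 0.0663), and 2.15 with the block (adjusted p = 0.00557). Without library 12 of untreated HT1376 CT its adjusted p was 0.0429. With the bias-adjusted deviance of edgeR the adjusted p of MUC13 was 0.0292 without the block and 0.00519 with it. MUC15 had means of 8.88 ± 0.456 and 5.45 ± 1.03 CPM, with every treated library below every untreated one. Its log2 fold change was -0.69 ± 0.23 (adjusted p = 0.131), and -0.69 with the block (adjusted p = 0.0101). With the bias-adjusted deviance beside the block its adjusted p was 0.0353. With all 12 libraries fitted together and no block it was 0.0418. MUC3A had 38 pooled counts without and 4 with IFNγ, a ratio of 4.58 (1.65 to 17.7), and its adjusted p was 0.208. MUC5B overlapped between the groups (adjusted p = 0.683).

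Within HT1376 FOXP3 KO, 5 members had enough counts to be tested, and 1, MUC16, was higher with IFNγ. Of the 24131 genes tested, 0.978% were higher and 0.00414% were lower. The median log2 fold change of the 5 members was 0.89, against -0.01 over all genes.

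MUC16 rose from 173 ± 33.9 to 341 ± 63.3 CPM, and the groups did not overlap. The rise was 0.99 ± 0.17 on the log2 scale (adjusted p = 0.0294). Without library 12 of untreated HT1376 FOXP3 KO, the adjusted p was 0.0863, and without library 13 it was 0.162. Without library 11 or 13 of treated HT1376 FOXP3 KO it was 0.127 or 0.0572. MUC1 had means of 21.8 ± 9.09 and 42.8 ± 14.5 CPM, and its libraries overlapped. Its log2 fold change was 0.99 ± 0.32 with an adjusted p of 0.513, and 1.01 with the replicate block, with an adjusted p of 9.71e-21. With the bias-adjusted deviance of edgeR beside the block, its adjusted p was 1.48e-06, and without library 12 of untreated HT1376 FOXP3 KO and with no block it was 0.0498.

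MUC4 had means of 0.457 ± 0.148 and 0.791 ± 0.445 CPM (log2 fold change 0.89, adjusted p = 0.999), and its libraries overlapped. MUC15 was at 59.0 ± 7.12 and 60.7 ± 11.0 CPM, with a log2 fold change of 0.06 and an adjusted p of 0.999. MUC20 had 7, 7 and 1 counts without and 8, 1 and 2 with IFNγ (adjusted p = 0.999).

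The replicate numbers 11, 12 and 13 occur in all groups, and libraries of the same number in a line deviated together from their group means. Compared by number, MUC1 in HT1376 CT was 4.44, 3.26 and 3.73 times as high with IFNγ, and in HT1376 FOXP3 KO 1.93, 1.82 and 2.26 times. The ranges of the lines did not overlap for MUC1, nor did they for MUC4 and MUC15, given next. MUC4 was 4.70, 6.05 and 4.58 times as high in HT1376 CT, and 1.56, 0.855 and 3.24 times in HT1376 FOXP3 KO, where the counts were 5 to 40 per library. MUC16 was 1.55, 2.04 and 1.89 times as high in HT1376 CT and 1.95, 1.91 and 2.05 times in HT1376 FOXP3 KO, so the lines overlapped. MUC15 was 0.455, 0.681 and 0.720 times as high in HT1376 CT and 1.11, 0.939 and 1.03 times in HT1376 FOXP3 KO.

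**Figure D4:**
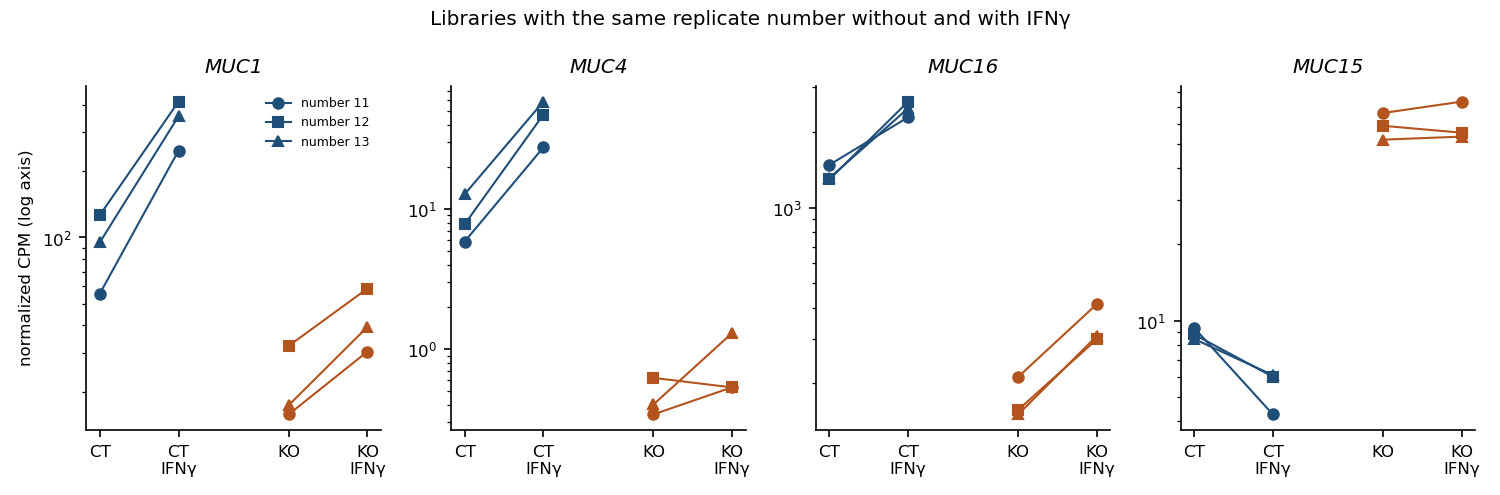
Lines join the libraries with the same replicate number without and with IFNγ in HT1376 CT (blue) and HT1376 FOXP3 KO (brown), as normalized CPM on a log axis. For MUC1 all 6 lines rise, with folds of 3.26 to 4.44 in CT and 1.82 to 2.26 in FOXP3 KO, and for MUC15 the CT lines fall while the FOXP3 KO lines are nearly flat.

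An interaction fitted to all 12 libraries asked whether the IFNγ effect differed by line. Of 8 members tested, 0 passed in edgeR, where 0.111% of 27806 genes passed in either direction. In DESeq2 0 passed as well, where 151 of 27806 genes passed. DESeq2 gave no adjusted p for MUC13, MUC20, MUC3A and MUC5B, so these could not pass there. In edgeR an unadjusted p under 0.05 was found for 2 of the 8, MUC15 and MUC20, against 1727 of the 27806 genes. The difference of the log2 fold changes (HT1376 FOXP3 KO minus HT1376 CT) was -0.90 ± 0.44 for MUC1 (adjusted p = 0.823), -1.29 ± 0.66 for MUC4 (0.832), 0.74 ± 0.24 for MUC15 (0.593) and 0.11 ± 0.20 for MUC16 (0.993). With the replicate block, MUC1 passed, at -0.94 with an adjusted p of 0.000882, and it passed with the bias-adjusted deviance beside the block as well (adjusted p = 0.00768). For MUC20 the difference was -2.77 ± 1.10 (adjusted p = 0.731), on at most 8 counts per knockout library.

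The gel-forming members were close to absent at this depth. MUC5AC had 2 counts in 1 library of untreated HT1376 CT, 5 in 1 library of treated HT1376 FOXP3 KO and 0 in the other 10 libraries. MUC6 had at most 3 counts in any library. MUC5B reached 16 counts in library 13 of untreated HT1376 CT, the most deeply sequenced library, and 0 in 5 of the 6 libraries of HT1376 FOXP3 KO. MUC5AC, MUC5B and MUC6 lie in the mucin cluster of chromosome 11, between 1012823 and 1262172.

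Several members share sequence with a neighbour. How strand and multi-mapping reads were handled in the counting was not given in the sources used here. MUC15 lies inside ANO3, which encodes an anoctamin, on the opposite strand, and 175 of its exon bases (4.88%) overlap exons of ANO3. ANO3 was also higher in HT1376 FOXP3 KO, from 1.78 to 6.25 CPM without IFNγ (log2 fold change 1.87, adjusted p = 0.000879) and from 5.85 to 11.5 CPM with IFNγ (0.99, adjusted p = 0.00875). With IFNγ in HT1376 CT, ANO3 rose by 1.80 (adjusted p = 0.00758), while MUC15 had a log2 fold change of -0.69. MUC20 shares 1851 exon bases (27.1%) with the lncRNA MUC20-OT1 on the same strand, which was higher with IFNγ in HT1376 CT by 0.61 (adjusted p = 0.0293). MUC20-OT1 was also higher in untreated HT1376 FOXP3 KO (0.67, adjusted p = 0.00598), where MUC20 had -0.34, and with IFNγ it had 0.04 between the lines (adjusted p = 0.89), where MUC20 had -3.09. MUC20 and MUC3A have close copies elsewhere in the genome, so their counts are uncertain. The pseudogene MUC20P1 had 12 counts without and 27 with IFNγ in HT1376 CT. These groups did not overlap (log2 fold change 2.32, adjusted p = 0.122). Between the lines it had -1.93 with IFNγ (adjusted p = 0.141) and -0.49 without (adjusted p = 0.759). With IFNγ in HT1376 FOXP3 KO it had 0.83, where MUC20 had -0.42. MUC3A shares 739 exon bases with an lncRNA on the opposite strand, MUC5B shares 434 with the antisense MUC5B-AS1, and MUC1 shares 48 with an overlapping gene on its strand.

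Neighbouring genes did not all move with the members. MUC4 and MUC20 lie 5642 bases apart on chromosome 3 on opposite strands. Between the untreated lines MUC4 had a log2 fold change of -4.32 and MUC20 of -0.34, and with IFNγ in HT1376 CT both rose by 2.33. TNK2, the gene on the other side of MUC4, was lower in untreated HT1376 FOXP3 KO (log2 fold change -0.73, adjusted p = 0.000647). With IFNγ it had -0.28 between the lines (adjusted p = 0.301) and the groups overlapped, while MUC4 had -5.59. Beside MUC1, TRIM46 was lower in HT1376 FOXP3 KO without IFNγ (-3.81, adjusted p = 0.00148) and with it (-2.92, adjusted p = 0.00264), and THBS3 rose with IFNγ in HT1376 CT by 0.997 (adjusted p = 0.0112). Beside MUC13, HEG1 was lower with IFNγ in HT1376 CT (-0.89, adjusted p = 0.0142) and higher in HT1376 FOXP3 KO by 0.40 (adjusted p = 0.0214) without and by 1.36 (adjusted p = 0.000583) with IFNγ.

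Across the 12 libraries, the genes whose log2 CPM was most alike to each abundant member were found among 15677 genes. For MUC1 these were KLF6 (Pearson r = 0.980), NAMPT (0.979) and CD47 (0.979). For MUC4 they were BTN2A1 (0.991), VCPIP1 (0.990) and BCL10 (0.985). For MUC16 they were CARD16 (0.991), ARAP2 (0.989) and AL137782.1 (0.985), and for MUC15 they were OBSL1 (0.993), KLF8 (0.993) and FGD3 (0.993). The libraries form 4 groups, so these values mainly describe shared group levels. Between MUC15 and MUC16, r was -0.95.

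Other mucin and mucin-like genes mostly had few or no counts. Of 12 listed, 11 were in the table and 3 were tested between the untreated lines, of which 1 was lower and 1 higher, where 18.2% of all genes tested were lower and 14.0% higher. With IFNγ, 1 of the 3 was lower and 0 higher in edgeR, against 15.7% and 13.2% of all genes. MUC22, a membrane mucin gene of the major histocompatibility region, was at 10.9 ± 3.22 CPM in untreated HT1376 CT and 0.309 ± 0.366 CPM in HT1376 FOXP3 KO (log2 fold change -5.34, adjusted p = 6.31e-05), and -6.77 with IFNγ (adjusted p = 5.54e-05). CD164, a widely expressed sialomucin, was at 319 ± 6.95 and 385 ± 26.4 CPM (0.29, adjusted p = 0.0444), and it had 0.15 between the lines with IFNγ (adjusted p = 0.322). MUC7 and MUC19 were at 0 in every library.

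Enzymes that build the glycans of mucins were among the genes called between the lines in both directions. Of 18 listed GalNAc transferases, which attach the first sugar, 13 were tested without IFNγ, of which 5 were lower and 3 higher in HT1376 FOXP3 KO (median log2 fold change -1.03), against 18.2% lower and 14.0% higher of all genes tested. With IFNγ, 6 of 14 were lower and 4 higher (median -0.89), against 15.7% and 13.2% of all genes. GALNT14 went from 23.0 to 0.317 CPM (-6.25, adjusted p = 3.83e-06) and GALNT18 from 0.161 to 70.4 CPM (8.72, adjusted p = 5.02e-08) in the untreated lines. GALNT5 (-3.58) and GALNT7 (-2.16) were lower too. Of 17 enzymes that extend or cap the glycans, 14 were tested, of which 5 were lower and 3 higher without IFNγ, and 5 lower and 2 higher with IFNγ, beside the same shares of all genes. FUT3, the Lewis fucosyltransferase, was lower (-3.40, adjusted p = 1.31e-06), as were GCNT1 (-2.64), which makes core branches, and B3GNT3 (-2.47). ST3GAL1, which caps the core with sialic acid, was higher, from 1.36 to 68.1 CPM (5.52, adjusted p = 5.00e-06).

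**Figure D5:**
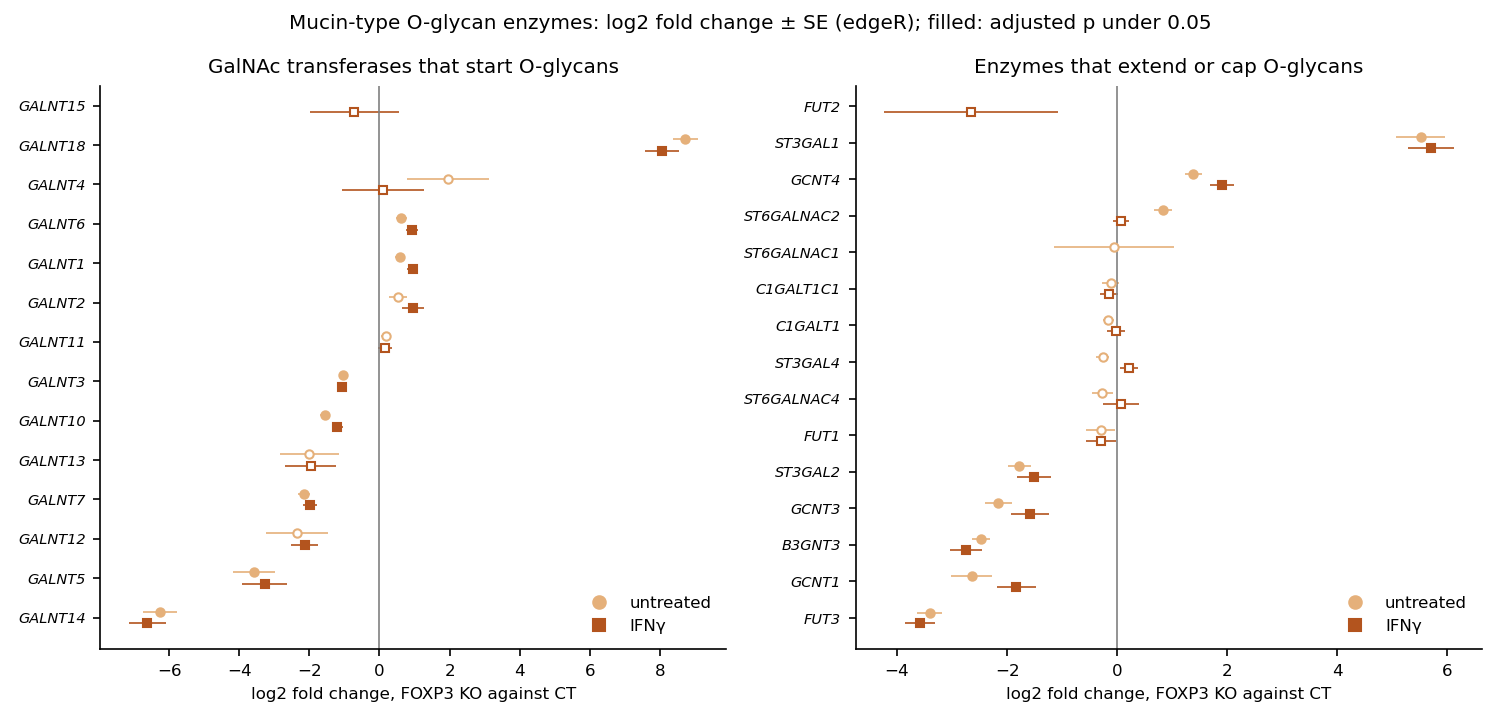
Points give the log2 fold change ± SE of HT1376 FOXP3 KO against HT1376 CT for the tested O-glycan enzymes, without IFNγ (circles) and with IFNγ (squares), filled where the adjusted p is under 0.05. GALNT18 (8.72) and ST3GAL1 (5.52) lie at one end and GALNT14 (-6.25) and FUT3 (-3.40) at the other in the untreated comparison.

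With IFNγ in HT1376 CT, 1 of 13 tested GalNAc transferases was higher, GALNT3 (0.52, adjusted p = 0.0477), and 2 were lower, GALNT10 (-0.69, adjusted p = 0.0112) and GALNT1 (-0.63, adjusted p = 0.00516). Of all genes tested there, 3.53% were higher and 1.82% lower. Among 16 tested extending enzymes, ST6GALNAC2 was higher (0.96, adjusted p = 0.00294), and GCNT1 (-0.79) and ST3GAL4 (-0.75) were lower.

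Of 14 mucin sheddases and binding partners, 7 were lower and 4 higher in untreated HT1376 FOXP3 KO, and 4 lower and 3 higher with IFNγ. The shares of all genes tested were 18.2% lower and 14.0% higher without and 15.7% and 13.2% with IFNγ. MSLN, the gene of mesothelin, which binds MUC16, had 578 counts over the libraries of untreated HT1376 CT and 1 over those of HT1376 FOXP3 KO (8.08 and 0.0297 CPM, adjusted p = 2.25e-06). With IFNγ it was at 5.52 and 0.0891 CPM (-5.98, adjusted p = 0.000156). ADAM8 (-4.09) and ADAM9 (-1.27), which encode membrane metalloproteases, were lower without IFNγ, and MMP14 (1.24) was higher. LGALS3, whose product galectin-3 binds mucin glycans, was higher under IFNγ (1.56, adjusted p = 8.38e-05).

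Of 17 genes of mucous secretory cells, 10 were tested between the lines, of which 2 were higher and 2 lower without IFNγ, and 2 higher and 3 lower with IFNγ. Without IFNγ these counts are near the shares of all genes tested, 14.0% higher and 18.2% lower, and with IFNγ all genes stood at 13.2% and 15.7%. AGR3, a protein disulfide isomerase, was at 0 counts in each library of HT1376 CT and had 118 over untreated HT1376 FOXP3 KO, which was at least 13.5-fold higher than a floor of 3 counts per library. AGR2, its relative needed for mucin folding in the gut, was higher by 0.67 (adjusted p = 0.00629) without and by 2.29 (adjusted p = 0.000233) with IFNγ, and it fell by 1.69 on the log2 scale with IFNγ in HT1376 CT (adjusted p = 0.00546). ZG16B (-4.32) and KLF4 (-1.27) were lower without IFNγ.

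Of 17 transcription factors known to act on mucin genes, 12 were tested. In HT1376 CT, IFNγ raised 4 of them and lowered 1, PPARG (-0.90, adjusted p = 0.0332), where 3.53% of all genes tested rose and 1.82% fell. In HT1376 FOXP3 KO it raised 3, where 0.978% of all genes rose. Between the lines, 3 were higher and 3 lower without IFNγ, and 2 higher and 6 lower with IFNγ, against 14.0% and 18.2%, and 13.2% and 15.7%, of all genes. IRF1 rose with IFNγ by 3.83 on the log2 scale in HT1376 CT and by 2.91 in HT1376 FOXP3 KO. The IFNγ effect on IRF1 was smaller in HT1376 FOXP3 KO (interaction -0.93 ± 0.15, adjusted p = 0.0171), and with IFNγ IRF1 was lower there than in HT1376 CT (-1.17, adjusted p = 6.34e-06). PPARG was higher in HT1376 FOXP3 KO by 1.45 (adjusted p = 4.24e-05) without and by 2.30 (adjusted p = 1.59e-05) with IFNγ, and GATA6 was lower (-1.53, adjusted p = 0.00763, and -1.42, adjusted p = 0.0129).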

How the data were processed

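RNA was sequenced from 12 HT1376 libraries, 3 in each of 4 groups set by the sample labels. Per the study's methods, ribosomal RNA was depleted, and the authors removed Mycoplasma reads with Kraken, aligned the rest with STAR (2.7.11a in the submitters' processing notes) to GRCh38 with Ensembl 103, and deposited raw whole-number gene counts made with htseq-count. Strand and multi-mapping settings were not given in the sources used here. Of the 60666 gene IDs, 60437 were found in GENCODE 44, which gave GRCh38 positions, exon lengths and neighbours.

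Each pair of groups was fitted on its 6 libraries, and the interaction on all 12, with edgeR 4.0.16 in R 4.3.3 (glmQLFit with the package default deviance, glmQLFTest, TMM), on genes whose counts summed to 10 or more, with Benjamini-Hochberg adjustment over all genes tested and calls at an adjusted p under 0.05. The scripts were tested on simulated data, where the share of false calls stayed under the set level for the untreated lines and exceeded it for the other comparisons, and exceeded it in every comparison with the replicate block under the default deviance. Normalized CPM used TMM factors over the 12 libraries. Likeness was Pearson r of log2 CPM (prior count 2) among genes with a mean CPM of at least 1. Counting intervals are exact (Clopper-Pearson, 95%), and the floor was 3 counts per library. No fold is given where both groups were at or under it. No within-group pair of libraries was a copy.

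The members, gene lists, tests and naming rule were chosen with earlier results of these data known. Named were all 10 members, per list and comparison up to 4 called genes with the largest absolute log2 fold change, overlapping and nearest genes, and the 3 most alike genes of each member with a mean CPM of at least 1. MUC20P1 was named outside this rule. Not every list gene the rule allows is printed, and 1 gene of a list is not reported here. The window of 1000 bases before each gene start and a second gene set for the check of the replicate numbers were added after seeing the data.

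Within each line, deviations from the group means were correlated for libraries sharing a replicate number (r 0.321 to 0.564 over genes with a mean CPM of at least 1), and between the lines r was 0.126 to 0.338. Over genes whose counts summed to 10 or more these were 0.139 to 0.267 and 0.0407 to 0.136. On this basis folds were given by replicate number within a line and a replicate block was tried as an alternative. Between lines the correlation depended on the genes used. The main fits have no block, so their calls leave this pairing out, and the blocked value is printed where it changes a call. The alternatives were size factors of DESeq2, no filter, filterByExpr, DESeq2 1.42.0, the bias-adjusted deviance, a replicate block with either deviance, all 12 libraries in 1 fit, an absolute log2 fold change over 1, and leaving out each library in turn.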

Additional observations from a re-analysis of the deposited data

How the results depend on the processing

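The number of members called was within 1.5 times the count given in the report under every alternative for IFNγ in HT1376 CT and for both comparisons between the lines. For IFNγ in HT1376 FOXP3 KO, the count of 1 became 2 with no filter on low counts, with the replicate block under either deviance, and 0 with an absolute log2 fold change over 1. Leaving out 1 library at a time gave 0 to 1 members there. For the interaction, the count of 0 became 1 (MUC1) with no filter, with the replicate block under either deviance. The replicate block changed the calls of MUC13 and MUC15 for IFNγ in HT1376 CT, of MUC1 for IFNγ in HT1376 FOXP3 KO and of MUC1 in the interaction, and of no other member. Leaving out 1 library at a time turned the sign of 5 fold changes that had not passed the test. Their ranges on the log2 scale were -0.12 to 0.17 for MUC15 and -1.92 to 0.34 for MUC20 with IFNγ in HT1376 FOXP3 KO, -1.02 to 0.22 for MUC20 between the untreated lines, and -3.84 to 2.23 for MUC13 and -0.022 to 0.32 for MUC16 in the interaction. Among the fold changes of members under the alternatives, 491 kept their direction and their side of the threshold, 16 newly passed, 14 no longer passed and 10 turned. The causes were not tested. Over all genes, IFNγ in HT1376 CT gave 1307 calls, 2248 with no filter, 4530 with the block, 4102 with that block under the bias-adjusted deviance and 761 to 1201 when 1 library was left out. IFNγ in HT1376 FOXP3 KO gave 237 calls, 1334 with the block and 1027 with both. The interaction gave 31 calls, 294 with no filter, 151 with DESeq2, 336 with the block, 230 with both and 15 to 33 when 1 library was left out. Depth limits MUC13, MUC20, MUC3A and the gel-forming members, which rest on 0 to 34 counts per library.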
